A study of Mus musculus with 6 samples.

Results

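Dlk1, Meg3, Rtl1, Rian, Mirg and Dio3 are the named genes of the imprinted Dlk1-Dio3 region on mouse chromosome 12, and they were picked by gene name from a table of 30707 genes in hippocampus. All 6 were found, and all were among the 14012 genes that reached a mean of 1 FPKM (fragments per kilobase of exon, scaled by library size) and were tested. The study infected the hippocampus of mice with a control virus or with a virus that knocks down SFRS8, an older name of Sfswap, which encodes a regulator of pre-mRNA splicing. There were 3 samples per group, and the strain, sex and age of the mice, the kind of virus and its promoter, and whether each sample came from 1 animal are not given in the labels. The p-values thus rest on the spread between 3 samples a group, and that spread may be technical. In limma, the linear-model test used here, it is pooled over both groups and drawn towards that of genes of similar level.

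Imprinted genes are expressed mainly from 1 of the 2 parental copies. In the mouse, Dlk1, Rtl1 and Dio3 code for proteins and are expressed from the paternal copy, whereas Meg3, Rian, Mirg and an antisense transcript through Rtl1 are non-coding and expressed from the maternal copy, under the control of a differentially methylated region between Dlk1 and Meg3. The maternal transcripts are the sources of large clusters of microRNAs and small nucleolar RNAs, many of them enriched in brain, and RNA of the Meg3 gene is abundant in neurons.

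The region ran over 828.275 kb on mm10, from the start of Dlk1 (chr12:109452823-109463336, plus strand) to the end of Dio3 (chr12:110279068-110281097, plus strand). Meg3 (chr12:109541001-109571726, plus strand) started 88.2 kb after the start of Dlk1. Rtl1 (chr12:109589193-109600330) is the only member on the minus strand. Rian (chr12:109603940-109661716, plus strand) followed, and Mirg (chr12:109729764-109749460, plus strand) started 277 kb after the start of Dlk1. The gene identifiers in the deposited table were ENSMUSG00000040856 for Dlk1, ENSMUSG00000021268 for Meg3, ENSMUSG00000085925 for Rtl1, ENSMUSG00000097451 for Rian, ENSMUSG00000097391 for Mirg and ENSMUSG00000075707 for Dio3.

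RefSeq (GRCm38.p6) places 58 microRNA hairpins between Dlk1 and Dio3, and lists 113 mature microRNAs there with 104 different seeds. Not every mature microRNA has its hairpin among the 58. Inside Meg3, for example, lie mature microRNAs of both Mir1906-1 and Mir770, but only 1 hairpin. Of the 58 hairpins, 7 lie inside Rtl1, 14 inside Mirg, 3 inside Rian and 1 inside Meg3, and 24 lie between the end of Rian and the start of Mirg. The first set below is cut from the strand opposite Rtl1, so that each is complementary to the Rtl1 transcript; it shows why reads over Rtl1 need a strand to be assigned. Capitals mark the seed, bases 2 to 8 from the 5′ end.
miR-431-5p: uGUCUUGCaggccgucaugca
miR-433-3p: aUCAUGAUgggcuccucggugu
miR-127-3p: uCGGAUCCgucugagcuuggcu
miR-434-3p: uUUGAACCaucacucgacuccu
miR-136-5p: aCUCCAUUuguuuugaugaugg

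None of these 5 seeds is shared with another microRNA of the region. The next set lies inside Mirg on its own strand, and the last pair of it, miR-453 and miR-496a-5p, shares the seed GGUUGCC. It is shown because the rows of most of these microRNA genes had reads in the table.
miR-134-5p: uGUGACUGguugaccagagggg
miR-154-5p: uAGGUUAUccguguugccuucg
miR-541-5p: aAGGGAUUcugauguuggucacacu
miR-410-3p: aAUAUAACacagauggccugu
miR-453: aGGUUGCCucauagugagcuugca
miR-496a-5p: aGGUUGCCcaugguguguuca

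In all, 10 seeds were shared by at least 2 microRNA genes of the region. Another pair lies between Rian and Mirg and is shown as an example of near-identical copies.
miR-376b-5p: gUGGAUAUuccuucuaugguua
miR-376c-5p: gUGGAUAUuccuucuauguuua

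The promoter windows of Dlk1, Dio3 and the first of 2 RefSeq start sites of Meg3 are shown because Meg3 was the most abundant transcript and because Dlk1 and Dio3, at opposite ends of the region, were low in the same samples. Each runs from 250 bases before to 50 after the start site given by RefSeq (GRCm38.p6), on the plus strand. Capitals mark matches, on either strand, to the cAMP response element TGACGTCA, the TATA box TATAAA and the CCAAT box CCAAT, which reads ATTGG on the other strand.
Meg3, chr12:109540746-109541045: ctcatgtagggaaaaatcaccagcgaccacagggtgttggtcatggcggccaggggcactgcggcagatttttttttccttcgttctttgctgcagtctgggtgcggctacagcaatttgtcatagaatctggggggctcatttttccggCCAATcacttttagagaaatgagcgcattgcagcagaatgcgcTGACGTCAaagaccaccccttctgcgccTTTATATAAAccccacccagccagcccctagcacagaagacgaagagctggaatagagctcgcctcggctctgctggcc
Dlk1, chr12:109452573-109452872: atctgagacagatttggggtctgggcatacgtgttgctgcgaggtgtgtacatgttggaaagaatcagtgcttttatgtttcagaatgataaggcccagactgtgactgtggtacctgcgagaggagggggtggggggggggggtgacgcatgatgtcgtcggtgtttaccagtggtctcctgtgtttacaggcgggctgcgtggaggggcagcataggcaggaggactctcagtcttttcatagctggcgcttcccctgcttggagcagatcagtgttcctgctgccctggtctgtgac
Dio3, chr12:110278980-110279279: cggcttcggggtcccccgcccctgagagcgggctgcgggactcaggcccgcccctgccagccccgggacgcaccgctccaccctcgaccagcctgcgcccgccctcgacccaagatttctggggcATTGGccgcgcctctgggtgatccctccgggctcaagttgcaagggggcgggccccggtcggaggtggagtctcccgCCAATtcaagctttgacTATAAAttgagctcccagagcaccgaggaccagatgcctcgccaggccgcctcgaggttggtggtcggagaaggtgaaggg

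The Meg3 window held TGACGTCA at base -57 from its start site, CCAAT at -100 and TATAAA once on each strand, at -29 and -25, where the matches overlap. The Dio3 window held TATAAA at -31 and CCAAT at -48 and -125, with a GC content of 69% and 25 CpG pairs. The Dlk1 window held none of these motifs, nor did the window of the second Meg3 start site (chr12:109545148-109545447), which is not printed and held 1 CpG pair. Over the 32851 promoter windows of the same length, TGACGTCA was found in 1.79%, TATAAA in 13.62% and CCAAT in 37.41%, the median GC content was 52.67% and the median number of CpG pairs 7. A match describes the letters only and shows no binding.

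Reads recovered from the FPKM values came to between 16622948 and 18097344 per library. Sfswap had 16.7, 18.5 and 19.2 FPKM in control samples 1 to 3, against 9.79, 11.3 and 9.58 in knockdown samples 1 to 3, lower in each knockdown sample than in any control. Markers of neurons were all present (12 of 12 tested) and no marker list held a gene at 0 in every sample. The summed neuron markers were 2049 to 2074 FPKM in the controls and 1686 to 1987 in the knockdown samples. Summed microglial markers were 263 to 352 FPKM in the controls and 433 to 683 in the knockdown samples, and choroid plexus markers ranged from 62.3 to 3091 in the controls and from 1221 to 4687 in the knockdown samples. Dentate granule cell markers summed to 112 to 141 FPKM in the controls, against 66.3 to 113 after knockdown. Of the 8, 7 had a negative fold change and 1 was called lower, where 46.8% and 0.228% of all genes tested were. Markers of meningeal fibroblasts summed to 28.7 to 89.5 against 96.7 to 113 FPKM, and those of thalamus to 35.96 to 49.3 against 39.8 to 132. What part these shifts have in the values below was not tested. In bulk tissue, fewer cells of a type and less RNA per cell cannot be told apart.

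None of the 6 genes was called changed, at an adjusted p under 0.05 in limma over all 14012 genes tested. Of all genes tested, 1.43% were called, 1.2% as higher and 0.228% as lower, so that 0 of 6 is near the background. At an unadjusted p under 0.05, 0 of the 6 members passed, against 23.7% of the genes tested, 7.98% as lower. Fold changes were negative for Dio3, Meg3, Rtl1 and Mirg and positive for Dlk1 and Rian, with a median log2 fold change of -0.22 over the 6. Over all genes tested the median was 0.02 and 46.8% were negative. Meg3 and Rtl1 had groups that did not overlap, lower in the knockdown, as had 11.8% of the genes tested. Groups apart in either direction were found for 29.9% of the genes tested, and apart and higher for 18%.

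**Figure D1:**
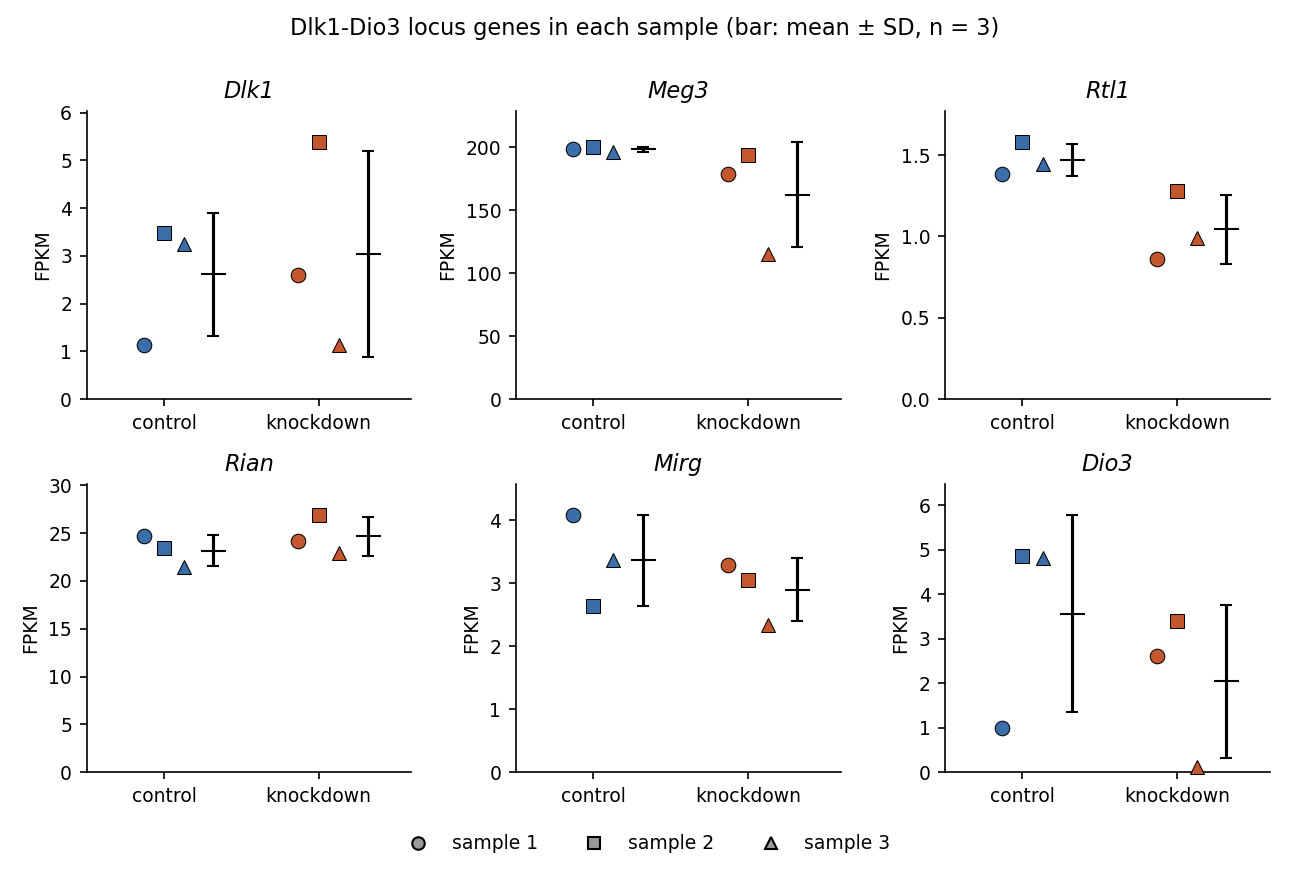
FPKM of each of the 6 genes in the 3 control (blue) and 3 knockdown (orange) samples, with the symbol giving the sample number and the bar the mean ± SD of each group, on axes that start at 0. Meg3 and Rtl1 are lower in every knockdown sample than in any control sample, and Dlk1 and Dio3 are low in control sample 1 and knockdown sample 3.

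Levels per length differed widely between the members. Averaged over the 6 samples, Meg3 was 7.55 times as high as Rian, and Rian 7.64 times as high as Mirg. Meg3 was above Rian, and Rian above the other 4 genes, in every sample. The ranges of Mirg, Dlk1 and Dio3 over the 6 samples overlapped, so that no order can be given among them. Rtl1, at 0.860 to 1.58 FPKM, lay below the whole range of Mirg, 2.34 to 4.09 FPKM, but overlapped those of Dlk1 and Dio3.

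**Figure D2:**
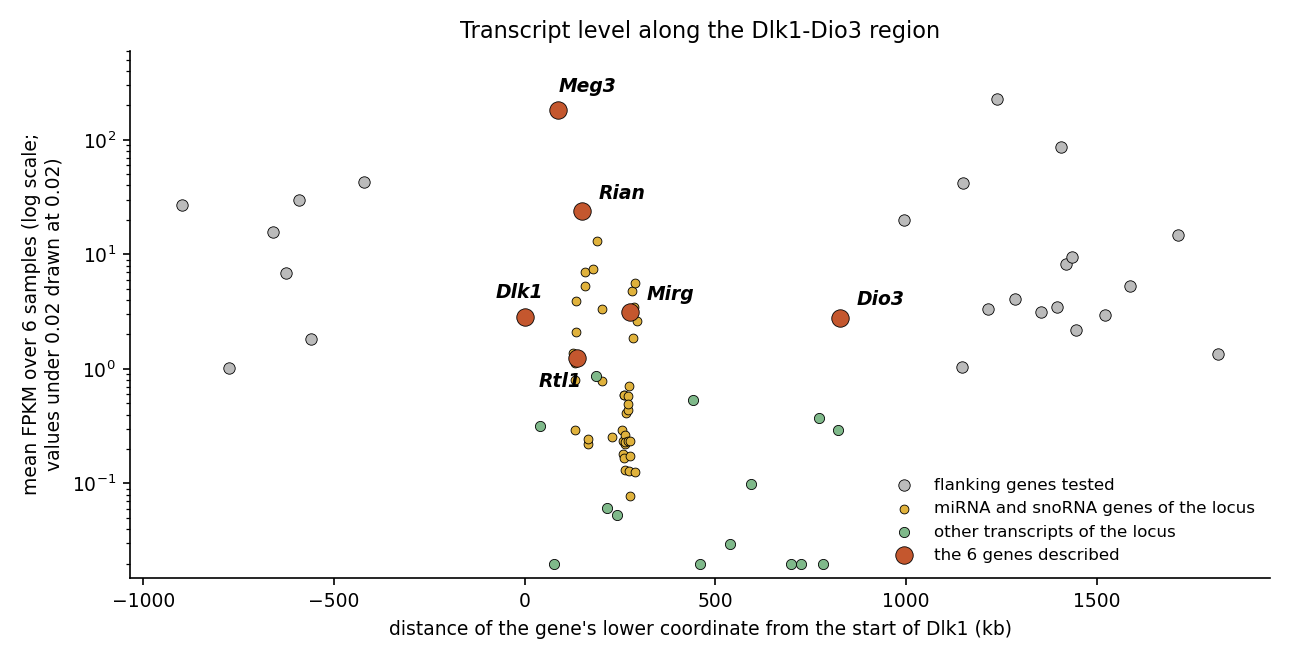
Mean FPKM over the 6 samples, on a log axis, against the distance of each gene from the start of Dlk1 in kb, for the 6 genes, the other 55 transcripts between Dlk1 and Dio3, and the 23 tested genes that start within 1 Mb outside. Meg3 and Rian stand above every other transcript of the region, and the microRNA and small nucleolar RNA genes lie between the end of Meg3 and the end of Mirg.

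Meg3, the long non-coding RNA nearest to the methylated control region, was the most abundant member, and ranked 138 by mean FPKM among the genes tested. It had 199, 200.4 and 196 FPKM in control samples 1 to 3, against 179, 194 and 115 FPKM in knockdown samples 1 to 3. The 3 controls lay close together, 2 of the knockdown samples lay slightly under them, and knockdown sample 3 stood well apart at 57.9% of the control mean. The reads behind them numbered 61989, 65593 and 63849 in the controls, against 57446, 58229 and 36232 after knockdown, so counting error is small beside the differences.

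The group means of Meg3 were 198.5 ± 1.98 FPKM in the controls and 163 ± 41.9 in the knockdown samples (SD, n = 3 each), a ratio of 0.819. The log2 fold change was -0.32 (SE 0.19, 95% interval -0.76 to 0.12), with an adjusted p of 0.342 in limma. An exact permutation test, two-sided, gave p = 0.1, below which a design of 3 against 3 cannot go. Without knockdown sample 3 the log2 fold change was -0.09, so that 1 library set most of its size. The summed neuron markers of that library, 1987 FPKM, were below those of each control and the highest of the 3 knockdown libraries; their part in the Meg3 value was not tested.

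The samples of a group differed little in Meg3 among the controls and more in the knockdown, a difference in spread that was not tested. Its coefficient of variation was 0.998% in the controls, where the median of the 184 genes within 1.5-fold of its mean was 5.50%, and only 3.26% of those genes varied less. In the knockdown samples it was 25.8% against a median of 9.67%, and 92.9% of those genes varied less. Meg3 took 0.355% to 0.362% of all recovered reads in the controls, and 0.324%, 0.350% and 0.208% in knockdown samples 1 to 3.

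Rian, the non-coding RNA whose introns hold a cluster of C/D small nucleolar RNAs, had the narrowest interval of the 6. Its samples had 24.7, 23.4 and 21.4 FPKM in the controls, against 24.2, 26.9 and 22.9 after knockdown. The groups overlapped throughout. The means were 23.2 ± 1.65 and 24.7 ± 2.04 FPKM (SD, n = 3), and the log2 fold change was 0.09 (SE 0.09, 95% interval -0.12 to 0.30, adjusted p = 0.609 in limma). The whole interval lies within 0.30 of 0 on the log2 scale.

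In knockdown sample 3, Meg3 lay far below every control sample, whereas Rian did not. That sample was still the lowest of the knockdown samples for both genes. Pearson's r between Rian and Meg3 on log2(FPKM + 1) was 0.228 over the 6 samples, and 0.653 after each group's mean was taken off. Rian came to 12.4%, 11.7% and 10.9% of the Meg3 level in the controls, against 13.5%, 13.9% and 19.9% after knockdown. Each knockdown sample was above each control, with knockdown sample 3 far above the others. The difference of the log2 ratio was 0.41 (two-sided exact permutation p = 0.1, the smallest possible), and it fell to 0.23 without knockdown sample 3. These percentages are free of any scaling between libraries, since both genes are read in the same sample.

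Mirg, the non-coding host of a microRNA cluster, had 4.09, 2.64 and 3.37 FPKM in the controls, against 3.29, 3.06 and 2.34 after knockdown. The groups overlapped, with knockdown sample 3 lowest and control sample 1 highest. Its mean went from 3.37 ± 0.722 to 2.90 ± 0.495 FPKM (SD, n = 3), with a log2 fold change of -0.16 (SE 0.15, 95% interval -0.52 to 0.21, adjusted p = 0.588 in limma). As a share of Meg3 it was 2.06%, 1.32% and 1.71% in the controls, against 1.84%, 1.58% and 2.04% after knockdown, a log2 difference of 0.16 (two-sided exact permutation p = 0.5).

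Rtl1, a gene derived from a retrotransposon that is needed in the placenta of the mouse, had the lowest mean FPKM of the members over the 6 samples. It was not the lowest in every sample: in control sample 1 it was above Dlk1 and Dio3. It had 1.39, 1.58 and 1.44 FPKM in the controls, against 0.860, 1.28 and 0.993 after knockdown, from 152, 182 and 165 reads against 97, 135 and 110. All knockdown values lay under all control values, though the 95% Poisson interval of knockdown sample 2, 1.07 to 1.51 FPKM, overlapped that of control sample 1, 1.18 to 1.63. The means were 1.47 ± 0.1003 and 1.04 ± 0.213 FPKM (SD, n = 3), a ratio of 0.709.

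The log2 fold change of Rtl1 was -0.28 (SE 0.13, 95% interval -0.58 to 0.02, adjusted p = 0.239 in limma), with an exact permutation p of 0.1, two-sided. The pseudocount of 1 pulls this value towards 0 at so low a level, and limma's voom on the recovered reads gave -0.52 with an adjusted p of 0.128, within a range of 0.121 to 0.472 over the alternatives. The library protocol names no step that keeps the strand, so reads of Rtl1 and of the maternal antisense transcript that carries the first set of microRNAs cannot be told apart.

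Dlk1 codes for a membrane protein with EGF-like repeats that is related to the Notch ligands. It had 1.14, 3.48 and 3.25 FPKM in control samples 1 to 3, against 2.60, 5.39 and 1.13 in knockdown samples 1 to 3, from 111, 356 and 330 reads against 261, 507 and 111. Each group held 1 low sample, control sample 1 and knockdown sample 3, and the groups overlapped. The highest sample was 4.79 times the lowest, beyond the counting intervals of these reads, which were 0.936 to 1.37 FPKM in control sample 1 and 4.93 to 5.88 in knockdown sample 2.

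The means of Dlk1 were 2.62 ± 1.29 FPKM in the controls and 3.04 ± 2.17 in the knockdown samples (SD, n = 3). The log2 fold change was 0.09 (SE 0.44, 95% interval -0.96 to 1.13, adjusted p = 0.927 in limma), and its sign turned negative without control sample 1 (-0.25), without knockdown sample 2 (-0.31) and after quantile normalization (-0.020). The coefficient of variation was 49.2% in the controls and 71.3% in the knockdown samples. Among the 3071 genes within 1.5-fold of its mean, the medians were 11.7% and 14.4%, so the samples of a group differed more in Dlk1 than in 94.6% and 97.5% of those genes.

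Dio3 codes for the deiodinase that inactivates thyroid hormone, and it varied most. It had 1.00, 4.87 and 4.82 FPKM in the controls, against 2.61, 3.41 and 0.113 after knockdown, from 35, 179 and 176 reads against 94, 115 and 4. The same samples as for Dlk1, control sample 1 and knockdown sample 3, were the lowest of their groups, and the highest sample was 43.1 times the lowest. The 4 reads of knockdown sample 3 have a 95% Poisson interval of 1.09 to 10.2 reads, or 0.0308 to 0.289 FPKM, which lies wholly under the 0.697 to 1.39 FPKM of control sample 1. All these intervals cover counting error only.

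The means of Dio3 were 3.57 ± 2.22 and 2.04 ± 1.72 FPKM (SD, n = 3), a ratio of 0.573. The log2 fold change was -0.65 (SE 0.62, 95% interval -2.11 to 0.81, adjusted p = 0.573 in limma, two-sided exact permutation p = 0.5). It was -0.04 without knockdown sample 3 and -1.17 without control sample 1, and voom on the recovered reads gave -1.50.

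**Figure D3:**
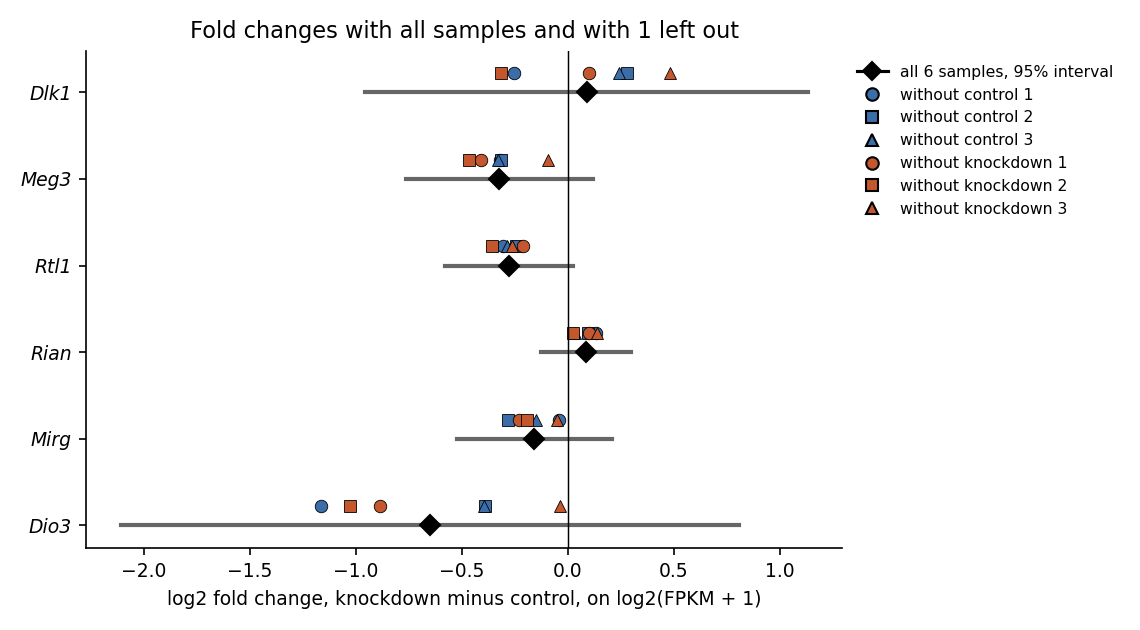
Log2 fold change (knockdown minus control, on log2(FPKM + 1)) of each gene with all 6 samples (black diamond, with its 95% interval) and with each sample left out in turn (coloured symbols). Every interval spans 0, and the values of Dlk1 fall on both sides of 0 when 1 sample is left out, from -0.31 to 0.48.

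Dlk1 and Dio3 had similar patterns over the 6 samples, although they lie at opposite ends of the region. Pearson's r between them was 0.846 on log2(FPKM + 1) over the 6 samples, and 0.946 after each group's mean was taken off, as a description of 6 libraries from the same tissue and preparation. Meg3 and Dio3 had r = 0.797, and Dlk1 and Meg3 0.557. Gfap, an intermediate filament gene of astrocytes, was highest in the samples where Dlk1 and Dio3 were lowest, at 322 FPKM in control sample 1 and 454 in knockdown sample 3, against 200 to 257 in the other 4. The sum of the other 7 astrocyte markers was 728 FPKM in control sample 1, the highest of the 6, and 676 in knockdown sample 3, the lowest of the knockdown samples. The part of these markers in the Dlk1 and Dio3 values was not tested.

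The 5 genes with the pattern most like each member were taken by r over the 6 samples among all genes tested. For Dlk1 they were Fhl1 (r = 0.994), Plagl1 (0.993), Ngb (0.983), Zswim7 (0.983) and 2410004B18Rik (0.967). Plagl1, itself an imprinted gene, codes for a zinc finger transcription factor and had 3.81, 6.27 and 5.93 FPKM in the controls, against 5.26, 8.10 and 4.05 after knockdown. Control sample 1 and knockdown sample 3 were again the lowest. Ngb, which codes for neuroglobin, had 1.08, 2.08 and 2.23 FPKM against 1.64, 3.35 and 1.07.

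For Dio3 the closest genes were Slc7a3 (r = 0.984), Clpb, 2810402E24Rik, Actn2 and Tdo2. Slc7a3, which codes for a transporter of cationic amino acids, had 1.61, 2.88 and 2.79 FPKM in the controls, against 1.89, 2.26 and 0.955 after knockdown. For Meg3 they were Grk3 (0.996), Galntl6 (0.986), Skp2 (0.985), Nts (0.984) and Per2 (0.979), all lowest in knockdown sample 3. Nts, which codes for the peptide neurotensin, had 3.49, 4.91 and 4.41 FPKM against 3.43, 3.71 and 0.322, and the clock gene Per2 had 9.83, 9.18 and 9.63 against 8.17, 8.46 and 5.21.

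For Rtl1 the closest included Vstm2a (r = 0.997), Ralyl, Zfp607b and Ate1, for Rian Rbm12b1 (0.990), Ivns1abp, Gria4, Tnfaip6 and Rnf13, and for Mirg Taz (0.997), Pfdn6, Rps15a, Egfem1 and Pfdn5. With 6 samples such values are common: 134 genes passed r = 0.95 for Rtl1, 40 for Meg3 and 12 for Dlk1. No member was among the 5 closest genes of another.

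**Figure D4:**
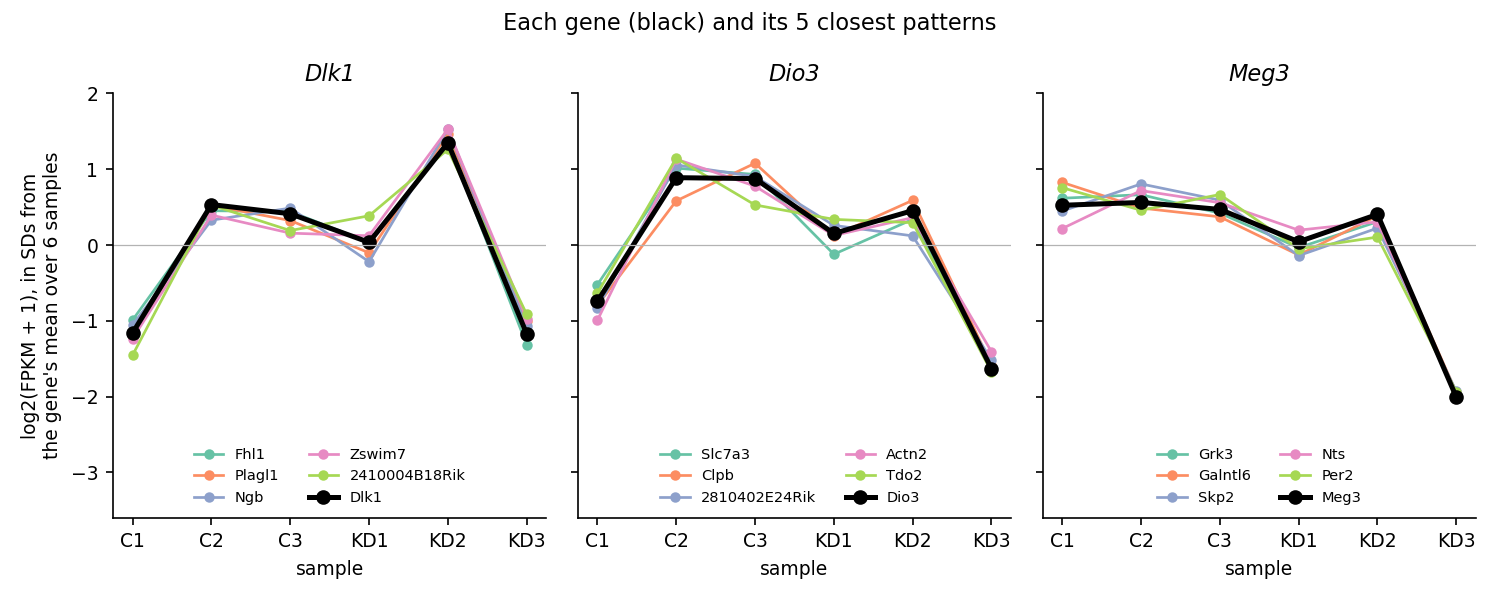
Log2(FPKM + 1) of Dlk1, Dio3 and Meg3 (black) and of the 5 genes closest to each (colours), in SDs from each gene's own mean, over control samples 1 to 3 (C1 to C3) and knockdown samples 1 to 3 (KD1 to KD3). Dlk1 and Dio3 dip in C1 and KD3, and Meg3 dips in KD3 alone.

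The table held 55 other transcripts between Dlk1 and Dio3, 36 of them microRNA genes and 5 small nucleolar RNA genes, and 14 passed the filter on low values. None was called. The annotated genes of the tested microRNAs are 66 to 120 bp long, shorter than the selected fragments of about 350 bp, so their values are no measure of mature microRNAs. Reads over all 36 microRNA rows summed to 104, 106 and 68 in the controls, against 57, 61 and 56 after knockdown. The sums, not scaled by library size, were lower in every knockdown sample than in any control, although no single row was called. Of all genes tested, 11.8% were apart and lower. Sums overlapped between the groups inside Rian (16, 44 and 22 against 19, 19 and 26) and inside Mirg (47, 33 and 18 against 24, 21 and 17). Only the rows inside no member were apart, at 41, 29 and 28 against 14, 21 and 13.

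Among the 11 tested microRNA genes, 9 had a negative log2 fold change and the median was -0.53, where 46.8% of all genes tested were negative. Mir154, Mir540 and Mir3070a reached the filter only through their control means, 3.41, 1.97 and 3.35 FPKM. Their knockdown means were 0.290, 0.299 and 0.863 FPKM. Mir758, with means of 0 and 1.19 FPKM, fell under the filter, so the filter itself can tilt this count and nothing is concluded from it. Mir154, in a Mirg intron, had the lowest adjusted p in limma, 0.112 at a log2 fold change of -1.64, from 4, 7 and 1 reads against 0, 0 and 1. The other microRNA genes tested in Mirg were Mir453, Mir496a, Mir541 and Mir3072, the last of which overlaps an annotated Mirg exon and had a log2 fold change of 0.35. Mir541 had 13.5, 3.68 and 4.33 FPKM against 5.64, 3.34 and 3.19, so its groups overlapped. Around Rtl1 and Rian, Mir493, Mir540, Mir3070a and Mir3070b on the 3′ side of Rtl1 and Mir341 and Mir1188 in Rian introns were tested. Mir3070b had 9, 8 and 9 reads in the controls, against 8, 3 and 0 after knockdown, with a log2 fold change of -1.29 (adjusted p = 0.232 in limma).

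The 3 tested small nucleolar RNA genes, Gm24564, Gm23600 and DQ267102, all lie in Rian introns. They are 71 to 75 bp long, shorter than the selected fragments of about 350 bp, so their values are no measure of mature small nucleolar RNAs. Gm23600 was the highest of them, with 17.97, 19.5 and 10.97 FPKM in the controls, against 7.15, 16.9 and 6.46 after knockdown. Their log2 fold changes ran from -0.70 to -0.07, with a lowest adjusted p of 0.215 in limma, and all 3 had overlapping groups. Of the 41 transcripts under the filter, 0 were called in the fit without a filter and 8 had an unadjusted p under 0.05, where 14.4% of all genes in that fit had one. One of these, AL591207.3 (ENSMUSG00000113581), a long non-coding RNA that starts beside Dio3, was chosen after its values were seen. It had 10, 15 and 16 reads in the controls, against 3, 5 and 3 after knockdown, and an adjusted p of 0.141 in that fit. Also among the 8, Gm23912, Mir370 and Mir758 were higher after knockdown. Mir758 had 0 reads in each control, against 1, 1 and 3, and an adjusted p of 0.156 in that fit. Gm23912, Mir370 and Mir544 had at most 1 read in any sample.

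Outside the region, the 23 tested genes that start within 1 Mb of it were not called either. Their median log2 fold change was -0.06, and 15 of them were negative, where 46.8% of all genes tested were. Their values ran from -0.77 for 1700001K19Rik to 0.44. The 3 nearest before Dlk1 were Begain, at 45.2 ± 2.47 and 39.8 ± 8.96 FPKM (SD, n = 3), Wdr25, at 2.10 ± 0.124 and 1.55 ± 0.0307, and Wars, at 32.04 ± 1.42 and 28.2 ± 0.465. Wdr25 and Wars had lower values in every knockdown sample, with adjusted p-values of 0.146 and 0.163 in limma. After Dio3, Ppp2r5c, AC152827.2 and Dync1h1 had log2 fold changes of -0.13, -0.06 and -0.04, with overlapping groups.

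Imprinted genes of other regions were set beside the members. Of 45 listed, 29 were tested, 0 were called higher and 1 lower, where 1.2% and 0.228% of all genes tested were. Fold changes were positive for 15 and negative for 14, with a median log2 fold change of 0.01. Groups were apart and higher for 3 of the 29, and apart and lower for 7, where 18% and 11.8% of all genes tested were. The gene called was Rasgrf1, a paternally expressed exchange factor for Ras, which fell from 59.8 ± 3.56 to 43.4 ± 0.814 FPKM (SD, n = 3; log2 fold change -0.45, adjusted p = 0.0452 in limma). That call was lost in 13 of the 20 alternatives. Maternally expressed Igf2r, the receptor that clears IGF2, had 5.60 ± 1.16 and 8.75 ± 0.840 FPKM with an adjusted p of 0.0717, and Peg3, a paternally expressed zinc finger gene, had 23.6 ± 0.675 and 21.4 ± 4.94.

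Genes of the pathways that the members' proteins act in were also set beside the members. Of 27 tested Notch ligands, receptors and targets, 0 were called, where 1.43% of all genes tested were. Fold changes were positive for 21 and negative for 6, and the median log2 fold change was 0.14. Over all genes tested the median was 0.02 and 46.8% were negative. Groups were apart and higher for 12 of the 27, and apart and lower for 2, where 18% and 11.8% of all genes tested were. The 2 were Hes1, at 7.76 ± 1.05 and 5.89 ± 0.601 FPKM, and Rfng, at 34.9 ± 2.48 and 29.6 ± 3.57. The receptors Notch3, at 1.64 ± 0.241 and 3.19 ± 0.482 FPKM, and Notch2, at 4.65 ± 0.498 and 7.97 ± 1.41, came closest, with adjusted p-values of 0.05003 and 0.0551 in limma, the first just above the threshold. Adam17, a protease that cleaves Notch receptors and Dlk1, had 3.28 ± 0.310 and 4.62 ± 0.268 FPKM (adjusted p = 0.0703). Notch3 is known from mural cells of vessels. The summed markers of endothelium and mural cells were 56.9 to 63.4 FPKM in the controls, against 98.4, 90.8 and 140 in knockdown samples 1 to 3. Notch3 had 3.74, 2.92 and 2.90 FPKM in those knockdown samples. The part of these markers in the Notch3 values was not tested. Dlk2, the closest relative of Dlk1, had 12.7 ± 1.96 and 13.01 ± 2.77 FPKM.

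Of 19 tested genes of thyroid hormone turnover, transport and response, 0 were called higher and 1 lower. Over all genes tested, 1.2% were called higher and 0.228% lower. The gene called was Rasd2, a thyroid-responsive small GTPase, which fell from 16.7 ± 0.965 to 10.5 ± 0.744 FPKM (log2 fold change -0.62, adjusted p = 0.0432 in limma), a call lost in 12 of the 20 alternatives. Dio2, the deiodinase that activates thyroid hormone, had 16.3, 10.6 and 13.8 FPKM in the controls, against 8.88, 14.1 and 6.73 after knockdown (adjusted p = 0.328). Unlike Dio3, it was not low in control sample 1. Slco1c1, a transporter of thyroid hormone, had 11.03 ± 2.53 and 19.9 ± 4.22 FPKM (adjusted p = 0.0787).

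Among 17 other tested long non-coding RNAs of brain, 0 were called and 11 had negative fold changes, where 46.8% of all genes tested had. The median log2 fold change was -0.09. Neat1, the RNA of nuclear paraspeckles, had 6.53 ± 0.644 and 9.49 ± 0.450 FPKM (adjusted p = 0.05003 in limma, just above the threshold), and Miat had 45.1 ± 2.98 and 31.99 ± 5.39 (adjusted p = 0.0796). Snhg11, at 165, 166 and 138 FPKM in the controls, against 131, 140 and 89.6 after knockdown, was, like Meg3, lowest in knockdown sample 3. Malat1, at 168, 127 and 182 against 83.1, 128 and 123, was not.

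Known regulators of imprinting and of this region gave 0 calls among 17 tested, with a median of -0.03; the lowest adjusted p was that of Zfp445, a zinc finger protein that protects imprints, at 25.3 ± 1.93 and 20.5 ± 1.598 FPKM (0.115 in limma). Of 13 tested genes of microRNA biogenesis and action, 0 were called, 9 were positive and 4 negative, and the median was 0.05. Those of lowest p in limma were higher: Tnrc6a, at 7.68 ± 0.169 and 9.52 ± 0.572 FPKM (adjusted p = 0.0882), and Ago1, at 13.9 ± 1.10 and 19.1 ± 2.70 (0.0930). Drosha, which cuts the hairpins from their host transcripts, came next and was lower, at 23.01 ± 1.46 and 19.1 ± 0.652 FPKM (adjusted p = 0.107). Of 9 tested relatives of Rtl1 that also derive from retrotransposon Gag genes, 0 were called, with a median of 0.08.

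**Figure D5:**
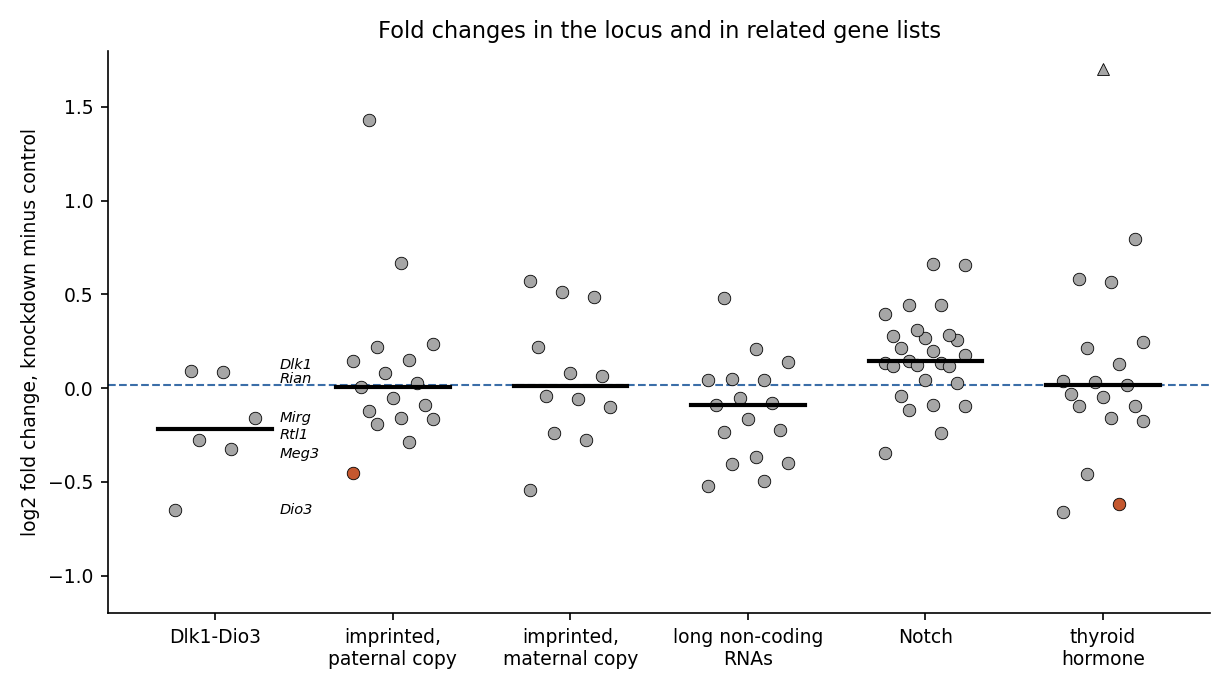
Log2 fold changes (knockdown minus control) of the 6 genes and of the tested members of 5 related lists, with black bars for the median of each, orange for genes called by limma and a dashed line for the median of all genes tested. The triangle marks Ttr, a thyroid hormone carrier made in choroid plexus, whose value of 3.80 lies above the axis; the medians lie between -0.22 for the locus and 0.14 for the Notch list.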

How the data were processed

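The authors deposited 1 table of FPKM values for 6 samples, in 30708 rows, of which 1 was emptied and is not used here. Libraries were made, per the labels' protocols, from poly(A) RNA copied with random primers, at fragments of about 350 bp. The build is mm10, per the submitters' processing notes; aligner and counter are not given in the sources. FPKM times exon length in GENCODE M21 (30641 IDs matched, 93.4% with the same start and end) gave whole reads, within 0.01, for 90.9% to 91.1% of values and for all 6 members.

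For the 14012 genes whose mean reached 1 FPKM, limma 3.58.1 (R 4.3.3) fitted group to log2(FPKM + 1), with eBayes and a variance trend; tests were two-sided and a Benjamini-Hochberg adjusted p under 0.05 was called. Fold changes on this scale understate the change of low genes. The procedure was tested on simulated data. The members and gene lists were chosen with earlier results of these data known. The genes named were the members, tested transcripts between them, the 3 nearest tested flanking genes on each side and the 5 closest patterns per member. From each list, called genes and some genes of low p were named, and in several lists genes of lower p than those named were left out. Any other gene named was picked with its values in view. For Rtl1, 1 of the 5 closest patterns is not reported here. Alternatives were other pseudocounts (0.1, 0.5), filters (none, 0.1, 5 FPKM), scalings, variance models, voom, a replicate block, an adjusted p of 0.1 and each sample left out. The microRNA and promoter sequences are from RefSeq, and 31 of the 36 microRNA rows matched by symbol.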

Additional observations from a re-analysis of the deposited data

How the results depend on the processing

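None of the 6 genes was called in any of the alternatives that gave it a value, an adjusted p of 0.1 included. With a filter at 5 FPKM only Meg3 and Rian had a value. Adjusted p-values ran from 0.195 to 0.534 for Meg3, 0.121 to 0.472 for Rtl1, 0.439 to 0.892 for Rian, 0.307 to 0.921 for Mirg, 0.351 to 0.9749 for Dio3 and 0.509 to 0.984 for Dlk1. Meg3, Rtl1, Mirg and Dio3 stayed negative and Rian positive throughout, whereas Dlk1 reversed to -0.020 after quantile normalization, to -0.25 without control sample 1 and to -0.31 without knockdown sample 2; the cause was not tested. With 1 sample left out, log2 fold changes ran from -0.47 to -0.09 for Meg3, -0.36 to -0.21 for Rtl1, 0.02 to 0.14 for Rian, -0.28 to -0.04 for Mirg, -1.17 to -0.04 for Dio3 and -0.31 to 0.48 for Dlk1, and the log2 ratios to Meg3 from 0.23 to 0.51 for Rian and 0.03 to 0.28 for Mirg. No other transcript between Dlk1 and Dio3 was called in any of them.

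The number of genes called over the whole table, 200, depended on the settings, and the cause was not tested. It was 354 and 338 with pseudocounts of 0.1 and 0.5, 390 with the robust trend, 594 with voom and 1335 at an adjusted p of 0.1. It was 14 after upper-quartile scaling, 3 with FPKM scaled to the same sum, and 0 without a filter, with a filter at 0.1 FPKM, under the replicate block, with no variance trend and after quantile normalization. It ran from 0 to 190 with 1 sample left out. At an unadjusted p under 0.05 the settings with 0 calls still held 2325 to 4416 genes. The median of imprinted genes elsewhere, 0.01, moved to -0.042 after quantile normalization and to 0.052 with voom, and ran from -0.090 to 0.035 with 1 sample left out. Samples of the same replicate number did not deviate together (correlations of 0.050, 0.043 and -0.008, against -0.132 to 0.083 for unlike numbers). With 3 samples a group this shows no pairing by number but cannot exclude one, and the labels do not say what the numbers mean. With the replicate block the adjusted p-values in limma were 0.319 for Meg3, 0.310 for Rtl1, 0.609 for Rian, 0.558 for Mirg, 0.575 for Dio3 and 0.912 for Dlk1. Depth limits Dio3 in knockdown sample 3 and the short RNA genes, which rest on a few reads.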
